A study of Mus musculus with 3 samples.

Results

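Genomic imprinting was followed in mouse pluripotent stem cells through 35 imprinted genes and 2 genes that keep imprints, Zfp57 and Trim28. The genes were taken by symbol from a list of 37, and 33 of them had a probe set of their own among the 22180 genes of the array that carry a single symbol. H19, Mirg and Snrpn were listed only on probe sets that name several genes, so no value is given for them, and Zrsr1 was not analysed here. Of the imprinted genes, 20 are expressed from the paternal allele, 14 from the maternal allele and 1, Gnas, from either allele depending on the transcript. The RNA came from 3 cultures in N2B27 medium, all derived from the established mouse embryonic stem cell (mESC) line EB3, with 1 array each. The mEpiSC culture held epiblast stem cells induced from EB3 mESCs, a model of the primed post-implantation epiblast, and received 20 ng/ml Activin A, a ligand of the TGF-beta family, and 12 ng/ml bFGF. The Activin+PD culture held mESCs that had spent 64 days in 20 ng/ml Activin A plus PD0325901, which inhibits the ERK-activating kinase MEK, at 2 µM. The 2i culture held mESCs that had spent 34 days in the same MEK inhibitor at 2 µM plus CHIR99021, which inhibits the kinase GSK3, at 2 µM. No label states how long the mEpiSCs were cultured, and the effect of the medium and that of the time in culture cannot be told apart.

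An imprinted gene is transcribed mainly from one parental allele because the other allele carries a mark set in the germline, usually DNA methylation of an imprinting control region. ZFP57, a zinc finger protein, recognises the methylated hexamer TGCCGC in these regions and brings in TRIM28, which recruits histone and DNA methyltransferases so that the mark survives the loss of methylation elsewhere in the early embryo. Many imprinted genes act on fetal and placental growth, and imprints are known to erode in cultured pluripotent cells. The arrays measure the sum of both alleles, so a higher or lower level says nothing by itself of which allele was read.

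There were no replicates, so no difference was tested, and "higher" and "lower" describe these 3 arrays. Levels are normalised intensities on a linear scale, and differences are between log2 intensities, the array named second being subtracted. The array medians were 51.9 for mEpiSC, 50.9 for Activin+PD and 51.2 for 2i. Background was set on each array by the probe sets of odorant and vomeronasal receptor genes, at an intensity of 47.6 for mEpiSC, 45.4 for Activin+PD and 48.2 for 2i. A pair of arrays was compared for genes exceeding background in at least 1 of them, and a gene counted as apart at 2-fold, a log2 difference of 1. Probe sets of the same gene disagreed with a standard deviation of 0.33 (mEpiSC minus 2i), 0.24 (Activin+PD minus 2i) and 0.30 (mEpiSC minus Activin+PD) over 497 genes. That spread covers probe set error and not the variation between cultures.

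The naive markers set mEpiSCs apart from both mESC cultures. Primed markers were less clear-cut, with some also higher in Activin+PD than in 2i. All 9 markers of naive mESCs were at least 2-fold lower in mEpiSCs than in either mESC culture, and all 9 were above background in both mESC cultures. Of 7 primed epiblast markers, 5 were at least 2-fold higher in mEpiSCs than in 2i. The 5 general pluripotency markers were above background on all arrays. Nanog and Sox2 were at least 2-fold lower in mEpiSCs than in 2i, while Pou5f1 at 0.15, Sall4 at -0.09 and Lin28a at 0.98 were within 2-fold. None of the fibroblast markers, which would show feeder cells, was 2-fold apart in any comparison. Their summed intensity over 14 genes was 2766 in mEpiSCs, 2241 in Activin+PD and 3126 in 2i. Vim, which many cell types express, made up 70.1% of that sum in mEpiSCs, 66.0% in Activin+PD and 75.8% in 2i, and the sums without Vim were 827.4, 762.6 and 756.4 in the same order. Postn, Lum, Fap and S100a4 were not above background on any array. Single markers of other lineages were at least 2-fold higher in mEpiSCs than in 2i. These were Gata6 among 10 extraembryonic endoderm markers, Mixl1 among 8 mesoderm markers, Nes among 7 neural markers and Eomes among 9 trophoblast markers. Tubb3, Cdx2 and Tfap2c of the same lists were at least 2-fold lower in mEpiSCs. In Activin+PD relative to 2i, Tubb3 stood at 1.32, Gata3 at 1.56 and Cdx2 at -2.80. The summed intensity of the mesoderm markers was 1070 in mEpiSCs, 443.0 in Activin+PD and 459.2 in 2i. That of the endoderm markers was 693.5 in mEpiSCs, 533.1 in Activin+PD and 521.8 in 2i. For the neural markers it was 1074 in mEpiSCs, 1149 in Activin+PD and 719.3 in 2i. For the trophoblast markers it was 1221 in mEpiSCs, 815.1 in Activin+PD and 1061 in 2i. These sums lean on single bright genes. In mEpiSCs, Mixl1, Nes and Eomes were the brightest of their lists, at log2 9.40, 9.21 and 9.43. The list medians for mEpiSC minus 2i were 0.088 for mesoderm, 0.26 for endoderm, 0.16 for neural and -0.053 for trophoblast markers. The trophoblast list holds the member Ascl2. The part of other cell types in the differences of the members was not tested. In RNA from whole cultures, fewer cells of a type and less RNA per cell cannot be told apart.

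Of the 33 measured members, the 2 keepers included, 27 were above background on every array. Some of the 27, such as Meg3, Zim1 and Nap1l5, were close to background. Of all 22180 genes, 13662 were above background in mEpiSCs, 13767 in Activin+PD and 13330 in 2i. How many of all genes were above it on every array was not computed. Plagl1 was above background in both mESC cultures only, and Asb4 in mEpiSCs only. Kcnq1, which encodes a potassium channel, Dio3, a deiodinase that inactivates thyroid hormone, Usp29, of the ubiquitin protease family, and Rasgrf1, an exchange factor for Ras, were not above background on any array. The plot of levels by domain shows where the 3 arrays part.

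**Figure D1:**
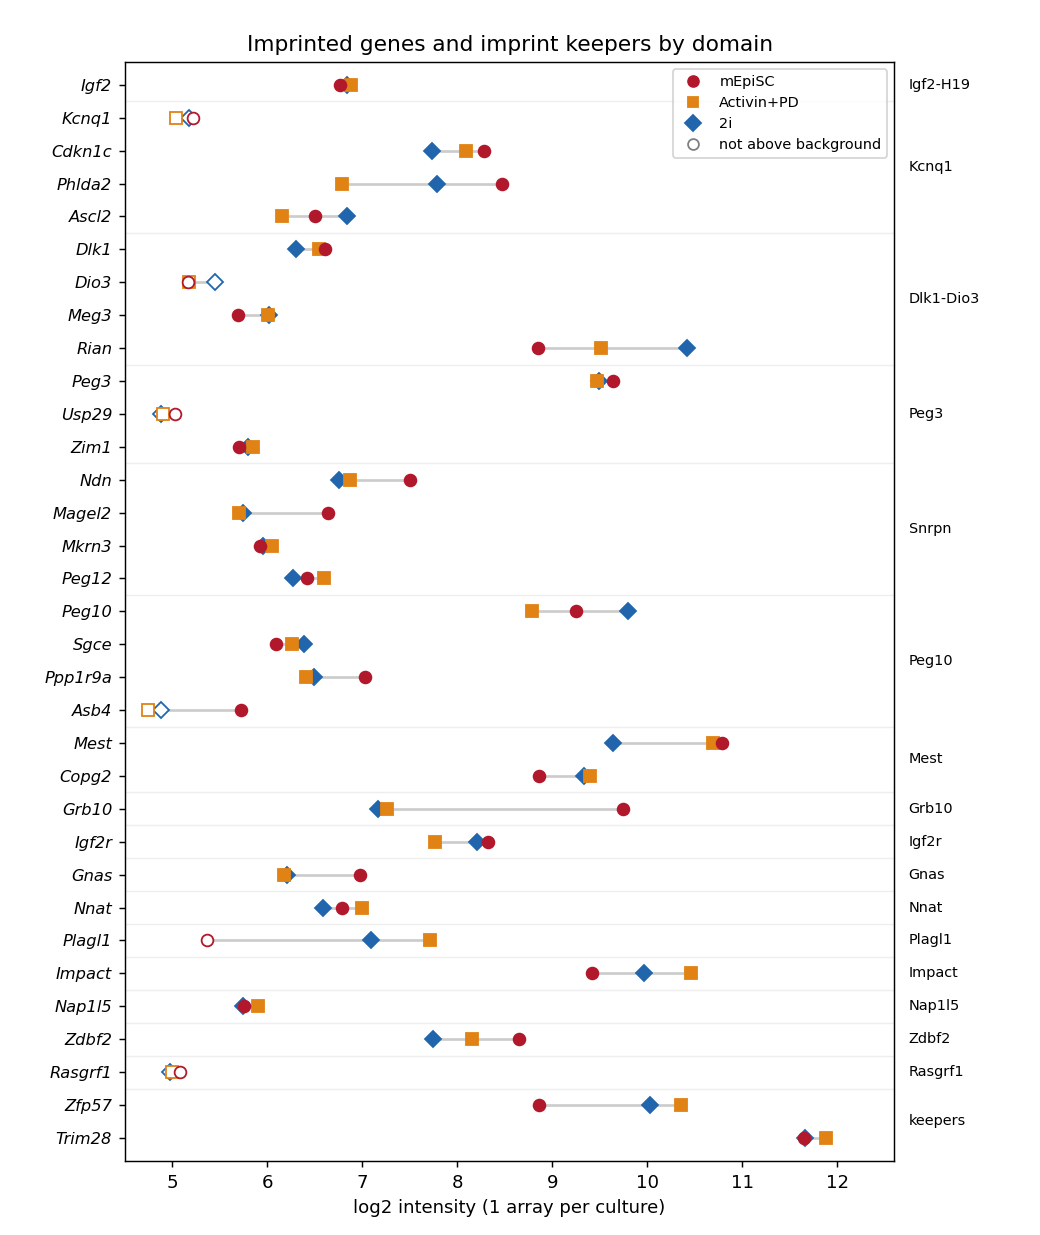
Levels of the 33 measured members on a log2 intensity axis, grouped by imprinted domain, with 1 point for each of the mEpiSC, Activin+PD and 2i arrays and open symbols for levels not above background. Grb10, Phlda2 and Zdbf2 had their highest level in mEpiSCs, Rian and Peg10 in 2i, and Plagl1 and Zfp57 in Activin+PD.

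Between mEpiSCs and 2i, 2 of 29 compared members were at least 2-fold higher (Grb10 and Mest) and 3 were at least 2-fold lower (Plagl1, Rian and Zfp57). That is 6.90% higher and 10.3% lower, beside 4.54% and 4.96% of all 14200 genes compared, or 9.5% of them in either direction. The member median was 0.12 and that of all genes 0.031. Between Activin+PD and 2i, 1 of 28 members was higher (Mest) and 2 were lower (Peg10 and Phlda2), which is 3.57% and 7.14% beside 1.38% and 0.821% of 14003 genes, or 2.2% in either direction. The medians were 0.073 for the members and -0.0056 for all genes. Between mEpiSCs and Activin+PD, 2 of 29 members were higher (Grb10 and Phlda2) and 3 were lower (Plagl1, Zfp57 and Impact), again 6.90% and 10.3%, beside 3.59% and 5.38% of 14375 genes, or 8.97% in either direction. The medians were 0.064 and 0.042. Differences smaller than the probe set spread were found for 12 of 29 members in mEpiSC minus 2i, 14 of 28 in Activin+PD minus 2i and 12 of 29 in mEpiSC minus Activin+PD. Those are 41.4%, 50% and 41.4% of the members, beside 62.5%, 69.2% and 57.7% of all genes compared. The comparisons share arrays, so the counts are not independent of each other.

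Genes of the 2 parental classes lay on both sides in every comparison. In mEpiSC minus 2i the 15 compared genes expressed from the paternal allele had a median of 0.14, with 1 higher and 1 lower, and the 11 expressed from the maternal allele had a median of 0.12, also with 1 higher and 1 lower. In Activin+PD minus 2i the medians were 0.16 over 15 paternally expressed genes and -0.052 over 10 maternally expressed ones, the second being -0.43 with the background at the 99th percentile. In mEpiSC minus Activin+PD they were -0.12 over 15 and 0.34 over 11, but the paternal median turned to 0.08 with the background at the 99th percentile and to 0.02 with no background filter. In that comparison both members at least 2-fold higher, Grb10 and Phlda2, are expressed from the maternal allele, and both imprinted members at least 2-fold lower, Plagl1 and Impact, from the paternal allele. Those are 18.2% of 11 maternally and 13.3% of 15 paternally expressed genes, beside 3.59% higher and 5.38% lower of all genes. The split rests on 2 genes per class, with Impact just past 2-fold at -1.04, and shows no pattern by allele. All of these class medians were within 2-fold, and no class was tested.

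**Figure D2:**
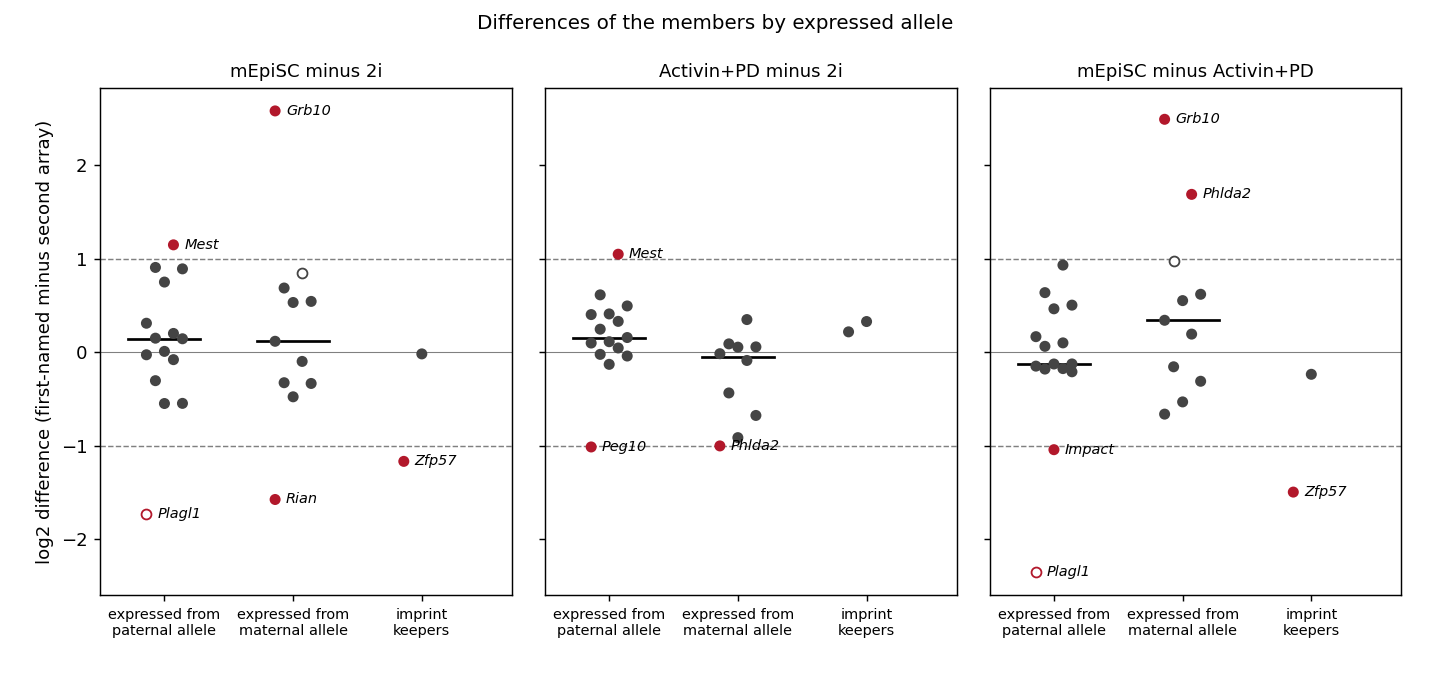
Log2 differences of the compared members, 1 panel per comparison, with genes expressed from the paternal allele, genes expressed from the maternal allele and the 2 keepers in columns. Black bars are class medians, dashed lines mark 2-fold, red points are at least 2-fold apart, and open points have 1 array not above background. Grb10 stands at 2.58 and 2.49 in the panels of mEpiSC minus 2i and mEpiSC minus Activin+PD.

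Zfp57 was lower in mEpiSCs than in both mESC cultures. Its intensity was 464.7 in mEpiSCs, 1309 in Activin+PD and 1042 in 2i. The mEpiSC level was 0.446 of that in 2i and 0.355 of that in Activin+PD, log2 differences of -1.17 and -1.49 that lay beyond the probe set spread. In Activin+PD it stood 0.33 above 2i. Trim28, the co-repressor that ZFP57 brings to imprints, was at 3206 in mEpiSCs, 3775 in Activin+PD and 3245 in 2i, within 0.24 in every pair. Trim28 was thus nearly level while Zfp57 was apart.

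Of 19 other genes of imprint maintenance, all compared, 1 was at least 2-fold higher and 1 lower in mEpiSCs than in 2i (list median -0.12). That is 10.53% apart, near the 9.5% of all genes. Between Activin+PD and 2i, 0 of 19 were apart in either direction (median 0.012), beside 2.2% of all genes. Zfp445, a second zinc finger gene that maintains imprints, had log2 levels of 9.18 in mEpiSCs, 8.93 in Activin+PD and 9.05 in 2i. Dnmt1, the maintenance DNA methyltransferase, was at 9.76 in mEpiSCs, 9.87 in Activin+PD and 10.15 in 2i, and its partner Uhrf1 at 10.15, 10.13 and 10.29 in the same order. Setdb1, the histone methyltransferase recruited through TRIM28, was at 8.85 in mEpiSCs, 8.74 in Activin+PD and 9.25 in 2i, a difference of -0.51 for Activin+PD minus 2i. The list member higher in mEpiSCs was Smchd1, a structural maintenance protein that silences several imprinted clusters, at 1.10 above 2i and 0.95 above Activin+PD. The lower one was Zfp42, also a naive marker, at -5.24 against 2i and -5.51 against Activin+PD. Dppa3, which protects imprints in the zygote, stood at -0.92 in mEpiSCs relative to 2i and -0.03 in Activin+PD relative to 2i.

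A list for setting or erasing imprints had 12 compared genes, and not all of them act on DNA methylation directly. In mEpiSCs, 1 was at least 2-fold higher and 3 lower than in 2i (median -0.31). Against Activin+PD, 1 was higher and 5 lower in mEpiSCs (median -0.64). Those are 33.3% and 50% apart, beside 9.5% and 8.97% of all genes, a difference between the shares that was not tested. Dnmt3b, a de novo methyltransferase that is also among the primed markers, was the higher one, at 2.05 against 2i and 2.65 against Activin+PD. Tet2, a dioxygenase that oxidises methylated cytosine, stood at -3.62 in mEpiSCs relative to 2i, and Dnmt3l, the cofactor of de novo methylation in germ cells, at -1.82. Prdm14, a repressor of de novo methylation in naive cells, was not above background in mEpiSCs, with a bound of -2.30 against 2i and -3.27 against Activin+PD. Against Activin+PD, Dnmt3a at -1.20 and Ctcfl at -1.32 were lower as well. Ctcfl, a germline paralog of the insulator gene Ctcf, was also the single gene of this list at least 2-fold apart between Activin+PD and 2i, higher by 1.32. That is 8.33% of the 12, beside 2.2% of all genes. Its log2 level was 7.06 in Activin+PD and 5.74 in both mEpiSCs and 2i. The last 2 were close to the log2 backgrounds of 5.57 and 5.59, which limits what these differences can show. Ctcf itself was at 10.23 in mEpiSCs, 10.24 in Activin+PD and 10.19 in 2i.

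**Figure D3:**
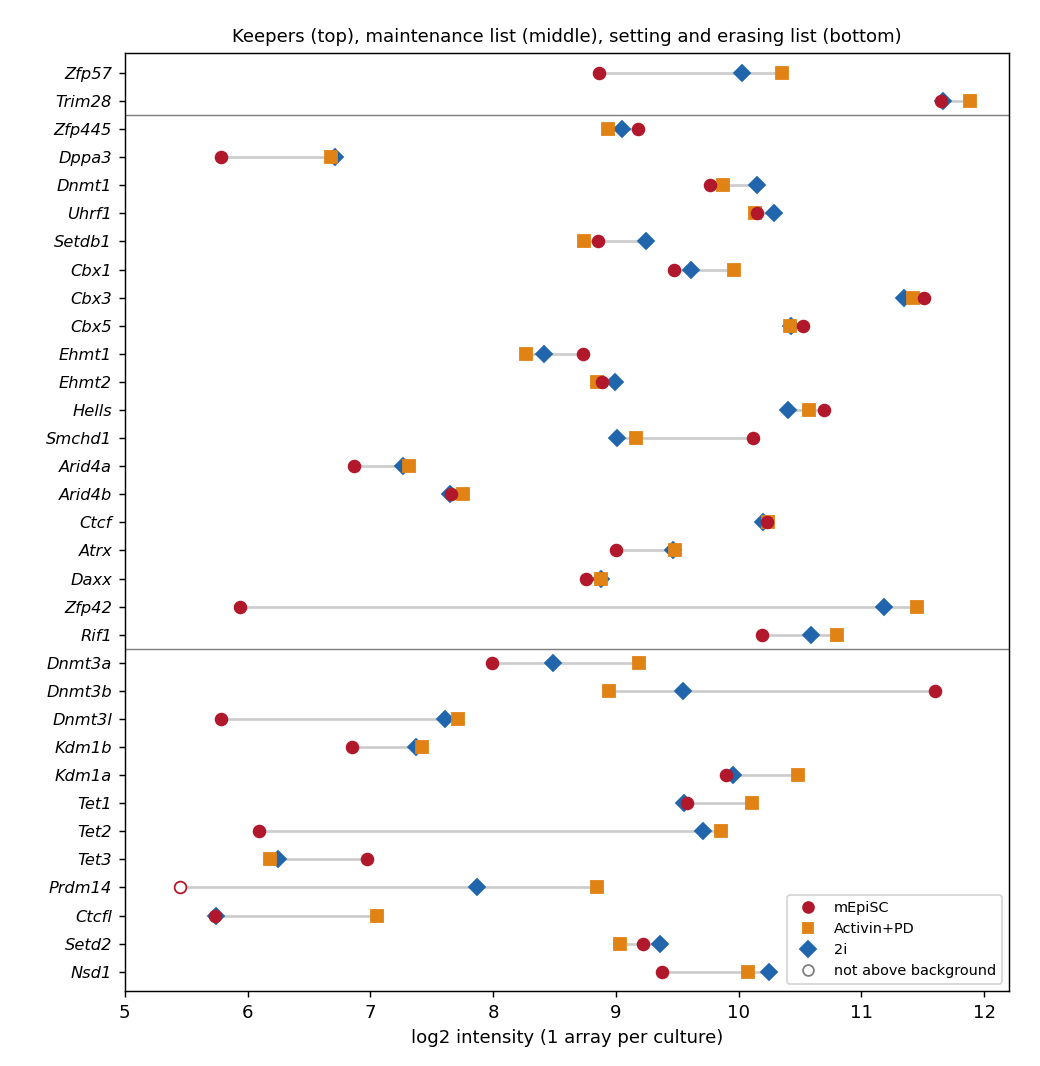
Log2 intensities on the mEpiSC, Activin+PD and 2i arrays, with open symbols for levels not above background. The top block holds Zfp57 and Trim28, and the middle block 19 genes of imprint maintenance. The bottom block holds 12 genes listed for setting or erasing imprints. Zfp57, Zfp42, Tet2, Dnmt3l and Prdm14 had their lowest level in mEpiSCs, and Dnmt3b and Smchd1 their highest.

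Promoter windows of Grb10, Mest and Plagl1 are shown because these genes are among the imprinted members at least 2-fold apart between mEpiSCs and 2i and because each window holds the hexamer that ZFP57 recognises when methylated. The sequences are from RefSeq on GRCm38.p6, run from 250 bases before to 50 bases after an annotated start, are written 5′ to 3′ on the gene's strand, and have TGCCGC or its reverse complement GCGGCA in capitals. The Grb10 window is chr11:12037371-12037670 on the minus strand, the Mest window chr6:30737800-30738099 on the plus strand and the Plagl1 window chr10:13090582-13090881 on the plus strand.
Grb10: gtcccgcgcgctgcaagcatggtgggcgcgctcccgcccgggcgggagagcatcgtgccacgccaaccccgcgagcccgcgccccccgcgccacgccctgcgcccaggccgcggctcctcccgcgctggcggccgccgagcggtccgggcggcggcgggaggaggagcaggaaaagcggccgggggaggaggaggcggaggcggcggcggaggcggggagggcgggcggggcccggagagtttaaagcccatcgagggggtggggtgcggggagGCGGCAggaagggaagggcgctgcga
Mest: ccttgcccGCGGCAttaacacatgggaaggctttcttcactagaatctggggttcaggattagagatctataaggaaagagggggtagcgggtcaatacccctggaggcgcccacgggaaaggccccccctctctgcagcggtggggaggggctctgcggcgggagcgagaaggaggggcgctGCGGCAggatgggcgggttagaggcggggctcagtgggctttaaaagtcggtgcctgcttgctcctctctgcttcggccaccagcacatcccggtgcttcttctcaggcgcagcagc
Plagl1: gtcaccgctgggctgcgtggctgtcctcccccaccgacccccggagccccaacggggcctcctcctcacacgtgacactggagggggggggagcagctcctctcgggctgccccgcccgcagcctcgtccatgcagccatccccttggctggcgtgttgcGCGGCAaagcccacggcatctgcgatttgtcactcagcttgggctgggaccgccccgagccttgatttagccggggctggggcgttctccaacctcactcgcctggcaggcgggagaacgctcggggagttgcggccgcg
Mest had 2 matches, Grb10 and Plagl1 1 each, with 17, 45 and 26 CpG dinucleotides in the Mest, Grb10 and Plagl1 windows. For each gene the window with the most matches was taken, the first by position on a tie. Another window of Grb10 and another of Mest held 0 matches. The window of Rian, also at least 2-fold apart between mEpiSCs and 2i, held 0 as well. Promoter windows were found for 31 of the 37 members, and 12 of these, or 38.7%, held the hexamer on either strand in at least 1 window, as did 13.1% of 27025 genes in all. Members had more windows per gene. Counted by window, 26.5% of 49 member windows and 11.6% of 32851 windows of all genes held it. Member windows were also richer in CpG, with a median of 14 per window beside 7 for all windows. Among windows with at least 14 CpG, 44.0% of 25 member windows and 24.7% of 11920 windows of all genes held it. A match describes these letters only and is no evidence that ZFP57 was bound.

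Among the members, Grb10 stood furthest above both mESC cultures in mEpiSCs. Grb10 encodes an adaptor that restrains signalling from the insulin and IGF1 receptors and is expressed from the maternal allele in most tissues. Its intensity was 859.4 in mEpiSCs, 153.1 in Activin+PD and 143.9 in 2i. The mEpiSC level was 5.97-fold that in 2i and 5.61-fold that in Activin+PD, while Activin+PD stood 0.09 above 2i. The neighbouring genes Ddc, which encodes an amino acid decarboxylase, and Cobl, an actin nucleator, lay the other way. Cobl was at log2 6.40 in mEpiSCs, 9.36 in Activin+PD and 9.16 in 2i, and Ddc at 5.80, 6.81 and 6.88 in the same order, with differences of -2.76 and -1.08 for mEpiSC minus 2i. Igf2, the growth factor, was at 108.4 in mEpiSCs, 118.2 in Activin+PD and 114.5 in 2i, so that all pairs were within the probe set spread. Igf2r, the receptor that clears IGF2, was at 319.5 in mEpiSCs, 217.9 in Activin+PD and 294.5 in 2i. Its level in Activin+PD was 0.43 below 2i and that in mEpiSCs 0.55 above Activin+PD. Mir483, a miRNA gene within Igf2, was at log2 7.33 in mEpiSCs, 7.16 in Activin+PD and 7.64 in 2i.

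Plagl1 was the member furthest below Activin+PD in mEpiSCs. It encodes the zinc finger factor ZAC1, an inhibitor of cell growth, and is expressed from the paternal allele. Its intensity was 41.2 in mEpiSCs, which is not above background, 209.3 in Activin+PD and 136.8 in 2i. The mEpiSC level was therefore lower by at least 2.88-fold than in 2i and by at least 4.40-fold than in Activin+PD. Activin+PD stood 0.61 above 2i. On all 3 arrays a second Plagl1 probe set stayed below background, with log2 levels of 4.33 in mEpiSCs, 4.43 in Activin+PD and 4.45 in 2i. With both probe sets averaged, Plagl1 was at -0.93 for mEpiSC minus 2i, no longer 2-fold lower, at -1.22 for mEpiSC minus Activin+PD and at 0.29 for Activin+PD minus 2i.

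The 3 members of the Kcnq1 domain that were above background, all expressed from the maternal allele, were not alike. Phlda2, which restrains placental growth, was at 354.2 in mEpiSCs, 110.0 in Activin+PD and 220.1 in 2i. It was thus highest in mEpiSCs, 3.22-fold above Activin+PD, and lowest in Activin+PD, where its difference from 2i lay on the 2-fold limit. Cdkn1c, the cyclin-dependent kinase inhibitor p57, was at 310.8 in mEpiSCs, 271.7 in Activin+PD and 213.3 in 2i. Ascl2, a transcription factor of trophoblast progenitors and a Wnt target, was at 90.6 in mEpiSCs, 71.5 in Activin+PD and 114.1 in 2i, which is -0.68 for Activin+PD minus 2i. In Activin+PD relative to 2i, Phlda2 and Ascl2 were therefore lower and Cdkn1c higher, at 0.35, all 3 beyond the probe set spread. Kcnq1ot1, the paternally expressed antisense RNA that silences this domain, was at log2 6.06 in mEpiSCs, 6.66 in Activin+PD and 6.57 in 2i. Kcnq1ot1 overlaps Kcnq1 on the other strand, and whether its probes separate the strands was not tested.

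Mest, which encodes a hydrolase-like protein of the endoplasmic reticulum and is expressed from the paternal allele, was higher in both cultures with Activin A. Its intensity was 1770 in mEpiSCs, 1651 in Activin+PD and 799.0 in 2i. That is 2.22-fold for mEpiSCs and 2.07-fold for Activin+PD relative to 2i, with 0.10 between the cultures with Activin A. The comparisons share the 2i array, so this rests on 1 measurement in 2i. The 2i culture was also the only one with CHIR99021. A lack of Activin A and inhibition of GSK3 therefore cannot be told apart here. Copg2, a coatomer subunit gene that overlaps the end of Mest on the other strand, did not follow, at 465.2 in mEpiSCs, 671.9 in Activin+PD and 647.0 in 2i.

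The Peg10 domain held members in both directions. Peg10, a gene derived from a retrotransposon and needed for the placenta, was at 609.9 in mEpiSCs, 442.1 in Activin+PD and 891.5 in 2i. Its level in Activin+PD was 0.496 of that in 2i, a difference of -1.01, and mEpiSCs were at -0.55. Sgce, the paternally expressed neighbour that encodes epsilon-sarcoglycan, was at 68.0 in mEpiSCs, 76.7 in Activin+PD and 83.9 in 2i. The maternally expressed genes were higher in mEpiSCs instead. Ppp1r9a, which encodes the actin-binding protein neurabin, was at 130.1 in mEpiSCs, 84.7 in Activin+PD and 90.0 in 2i. Asb4, a subunit gene of a ubiquitin ligase, was at 52.9 in mEpiSCs and at 26.9 in Activin+PD and 29.4 in 2i, neither of which is above background. Asb4 was therefore higher in mEpiSCs by at least 0.22 than in Activin+PD and by at least 0.13 than in 2i. Of other imprinted genes nearby, Calcr, the calcitonin receptor gene, was at log2 8.91 in mEpiSCs and not above background in Activin+PD and 2i, higher by at least 3.40 and 3.31. Pon2, a paraoxonase gene, was higher in mEpiSCs by at least 1.36 than in Activin+PD and by at least 1.27 than in 2i, whereas Pdk4, a kinase of the pyruvate dehydrogenase complex, was not above background in mEpiSCs, with a bound of -0.65 against Activin+PD and -1.12 against 2i.

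In the Snrpn domain, whose measured members are all expressed from the paternal allele, 2 of 4 stood higher in mEpiSCs without reaching 2-fold. Ndn, a growth-restraining member of the MAGE family, was at 181.7 in mEpiSCs, 116.8 in Activin+PD and 108.1 in 2i. Magel2, its neighbour and relative, was at 99.5 in mEpiSCs, 52.2 in Activin+PD and 53.7 in 2i. Their differences for mEpiSC minus 2i were 0.75 and 0.89. The mESC levels of Magel2 were close to background, and with 16 subtracted from each intensity its difference for mEpiSC minus 2i was 1.15. Mkrn3, which encodes a RING finger protein, was at 60.8 in mEpiSCs, 66.3 in Activin+PD and 62.0 in 2i, and Peg12, of the FRAT family of GSK3-binding proteins, at 85.7, 97.1 and 77.2 in the same order. Peg12 was the 1 member of the domain beyond the probe set spread in Activin+PD minus 2i, at 0.33. Of the maternally expressed genes at the edge of the domain, Atp10a, a phospholipid transporter gene, was 1.29 higher in mEpiSCs than in 2i, and the ubiquitin ligase gene Ube3a was 0.48 higher.

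The Peg3 domain was level across the cultures. Peg3, a zinc finger gene of the paternal allele, was at 797.5 in mEpiSCs, 710.5 in Activin+PD and 721.6 in 2i. Zim1, a zinc finger gene of the maternal allele, was close to background, at 51.9 in mEpiSCs, 57.8 in Activin+PD and 55.6 in 2i. Neither gene differed by more than the probe set spread in any pair.

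In the Dlk1-Dio3 domain, the maternally expressed long noncoding RNA gene Rian, a host of small nucleolar RNAs, was highest in 2i and lowest in mEpiSCs. Its intensity was 461.1 in mEpiSCs, 729.0 in Activin+PD and 1372 in 2i. The differences were -1.57 (mEpiSC minus 2i), -0.91 (Activin+PD minus 2i) and -0.66 (mEpiSC minus Activin+PD), each beyond the probe set spread. Dlk1, a paternally expressed transmembrane ligand gene of the Notch family, was at 97.6 in mEpiSCs, 93.4 in Activin+PD and 78.7 in 2i. Meg3, a long noncoding RNA gene at the start of the maternally expressed unit, was listed at 51.8 in mEpiSCs, 64.2 in Activin+PD and 64.9 in 2i, all close to background. Meg3 lies on the plus strand in RefSeq, but its probe set is numbered among probe sets of minus-strand genes, which were 10 of its 11 neighbours in number with a known strand. Over the array, 95.7% of 17885 probe sets lay on the strand of most of their neighbours in number. The Meg3 values are therefore uncertain, and whether the probe set reads the sense strand was not tested. The second probe sets of Plagl1 and of Nnat have the same property, with 17 of 17 and 15 of 16 neighbours on the minus strand. Rian had 0 neighbours of known strand, so its probe set could not be checked in this way.

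The miRNA genes between Dlk1 and Dio3, which lie along the maternally expressed unit of Meg3, Rian and Mirg, held several that were lower in mEpiSCs than in 2i. They were taken by their RefSeq position after the values had been seen. Of 41 such genes with a probe set, 22 were compared between mEpiSCs and 2i, and 7 were at least 2-fold lower by their listed levels and 0 higher (median -0.53). With levels not above background raised to it, a count added after seeing the data, 5 of 22 were at least 2-fold lower (median -0.39), which is 22.7% beside 4.96% of all genes by listed levels. Between Activin+PD and 2i, 0 of 22 were 2-fold apart, beside 2.2% of all genes, with a median of -0.40 and a range of -0.79 to 0.08. Between mEpiSCs and Activin+PD, 3 of 21 were lower by listed levels and 0 higher (median -0.30). Only Mir453 was at least 2-fold lower once levels not above background were raised to it (median -0.13), since the bounds of Mir300 and Mir679 were -0.53 and -0.73. That is 4.76% of the 21, near the 5.38% of all genes that were lower by listed levels. Of the 11 genes above background on all arrays, 9 had their highest level in 2i, and 6 had the order of Rian, with mEpiSCs lowest, Activin+PD between and 2i highest. Some of these steps were smaller than the probe set spread. How many of all genes had their highest level in 2i, or this order, was not computed. Whether these counts are unusual is therefore not known. These probe sets lie on host transcripts, so that the precursor and the host RNA cannot be told apart, and genes of 1 transcript are not independent of each other.

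Mature sequences are shown for the 3 of these miRNA genes that were at least 2-fold lower in mEpiSCs than in 2i and above background on all 3 arrays. They are from RefSeq on GRCm38.p6, all on the plus strand of chromosome 12, written 5′ to 3′ with the seed, bases 2 to 8, in capitals. The Mir329 arms lie at chr12:109713503-109713524 and chr12:109713541-109713562, the Mir667 arms at chr12:109720020-109720044 and chr12:109720061-109720083, and the Mir453 product at chr12:109735669-109735692.
mmu-miR-329-5p: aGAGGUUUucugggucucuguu
mmu-miR-329-3p: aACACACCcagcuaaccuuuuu
mmu-miR-667-5p: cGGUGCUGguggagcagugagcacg
mmu-miR-667-3p: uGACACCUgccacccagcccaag
mmu-miR-453: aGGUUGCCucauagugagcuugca
The 5 mature miRNAs have 5 different seeds. The arrays did not measure mature miRNAs. Mir453 was at log2 6.52 in mEpiSCs, 7.69 in Activin+PD and 8.30 in 2i. Mir667 was at 5.98 in mEpiSCs, 6.95 in Activin+PD and 7.69 in 2i, and Mir329 at 6.17, 7.00 and 7.79 in the same order. Their differences for mEpiSC minus 2i were -1.79, -1.71 and -1.62, beside -1.57 for Rian. Mir300 and Mir679 were not above background in mEpiSCs, with bounds of -1.10 and -1.28 against 2i. Mir493 and Mir1193 were not above background in mEpiSCs either, and their bounds of -0.81 and -0.73 lay within 2-fold. Not all genes of the cluster followed: Mir673 was at 8.05 in mEpiSCs, 7.66 in Activin+PD and 7.99 in 2i, and Mir540 at 6.13, 5.94 and 5.89 in the same order.

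**Figure D4:**
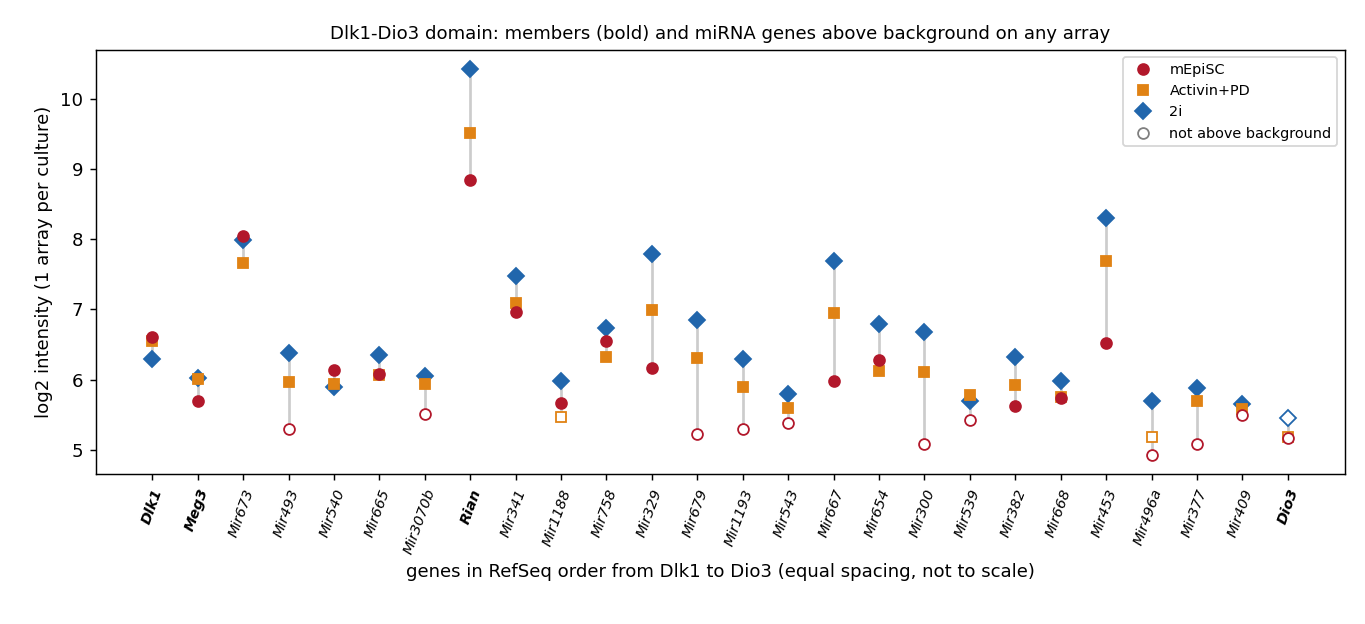
Log2 intensities of the Dlk1-Dio3 members (bold) and of the 22 miRNA genes above background on any array, in RefSeq order and at equal spacing, on the mEpiSC, Activin+PD and 2i arrays; open symbols are not above background. Rian, Mir329, Mir667 and Mir453 share the order of mEpiSC lowest and 2i highest, while Dlk1 does not.

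The other domains held 1 measured member each. Impact, an inhibitor of the stress kinase GCN2, is expressed from the paternal allele and was at 685.8 in mEpiSCs, 1411 in Activin+PD and 1001 in 2i, so that mEpiSCs were 1.04 below Activin+PD and Activin+PD 0.49 above 2i. Zdbf2, a paternally expressed zinc finger gene, was highest in mEpiSCs and lowest in 2i, at 402.5 in mEpiSCs, 283.9 in Activin+PD and 214.8 in 2i. Gnas, which encodes the stimulatory G protein alpha subunit, was at 126.2 in mEpiSCs, 72.4 in Activin+PD and 73.7 in 2i. Both Zdbf2, at 0.91, and Gnas, at 0.78, were within 2-fold for mEpiSC minus 2i. Nnat, a proteolipid gene of the endoplasmic reticulum, was at 110.2 in mEpiSCs, 127.3 in Activin+PD and 95.8 in 2i. Its second probe set stood at -0.09 for mEpiSC minus 2i and -0.06 for Activin+PD minus 2i. Nap1l5, of the nucleosome assembly protein family, was at 53.8 in mEpiSCs, 59.6 in Activin+PD and 53.5 in 2i, close to background throughout.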

How the data were processed

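Sense-strand DNA made from total RNA of 3 cultures was read on Affymetrix Mouse Gene 2.0 ST arrays, 1 per culture. Per the submitters' processing notes, the values were made with RMA, and the series' design text names GeneSpring GX 11.5. The deposited values are normalised intensities, linear from their range (19.1 to 11453 for mEpiSC, 18.9 to 11410 for Activin+PD, 19.0 to 11623 for 2i). A log2 scale had been foreseen, so log2 was taken first. No source used here says whether a constant had been added, which would shrink the differences of dim genes.

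Of 33793 probe sets, 23521 had 1 gene symbol, 1814 several and 8458 were not listed in the platform annotation. RefSeq symbols were found by Entrez identifier for 23328 of the probe sets with 1 symbol; the rest kept the file's symbol. This gave 22180 genes, each on its brightest probe set. Background was the 95th percentile of 1400 odorant and vomeronasal receptor probe sets. The probe set spread was the standard deviation of the disagreement between the 2 brightest probe sets of a gene, both above background on all arrays, divided by the square root of 2. A difference from a level not above background is given as "at least", against that background.

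The number of arrays limits the precision, and no p-value was computed. All members were named, and up to 10 genes of each other list that were 2-fold apart; genes named beyond this were chosen after their values were seen. Members and lists were chosen with earlier results of these data known. Python 3.11.15, numpy 2.4.6 and pandas 2.3.3 were used, and the counting was tested on simulated data.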

Additional observations from a re-analysis of the deposited data

How the results depend on the processing

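The counts and medians of the members were recomputed under 8 alternatives, and 112 of 120 values stayed within 1.5 times the count or within the probe set spread of the median. With the background at the 99th percentile, the median of maternally expressed members in Activin+PD minus 2i was -0.43, against -0.05 as reported. The median of paternally expressed members in mEpiSC minus Activin+PD, -0.12 as reported, changed sign to 0.08 at the 99th percentile and 0.02 with no background filter, within the probe set spread. With 16 subtracted from each intensity, 4 members were at least 2-fold higher in mEpiSC minus 2i and 4 in mEpiSC minus Activin+PD. The added ones were Magel2 and Asb4 in both comparisons. With each array centred on its median, 1 member was at least 2-fold lower in Activin+PD minus 2i, since Phlda2 stood at -0.99. At a 1.5-fold threshold, 8 members were higher in mEpiSC minus 2i, 2 higher and 4 lower in Activin+PD minus 2i, and 7 higher in mEpiSC minus Activin+PD. The shares of all genes were not computed under the alternatives. Whether these counts of members exceed them is therefore not known. No member at least 2-fold apart changed sign under any of these alternatives. Subtracting a constant from both intensities cannot reverse a sign, and raising levels to background changes only genes with a level not above it. Centring moves all genes of an array equally. Unchanged signs therefore say little of how stable the results are. Of 668 differences of single members, 659 moved by less than the probe set spread, the others being those of Plagl1 and Asb4. Of the 659, 86 were under the 1.5-fold threshold, 86 under no background filter and 66 under the 99th percentile background. These settings cannot change the difference of a gene, nor can the fold threshold change a median. Averaging probe sets could change only the 2 members with several of them. Such values say nothing of how stable the results are. Plagl1 for mEpiSC minus 2i ranged from -2.26 to -0.93, and Grb10 from 2.56 to 2.72. No paired analysis was possible because each culture had 1 array. Levels near background, such as those of Meg3, Zim1, Nap1l5 and Asb4, limit what their differences can show.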

Other observations

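Of 54 imprinted genes listed outside the members, 46 were measured and 34 were above background on any array. In mEpiSC minus 2i, 3 of 31 compared were at least 2-fold higher and 8 lower, in mEpiSC minus Activin+PD 2 of 34 were higher and 7 lower, and in Activin+PD minus 2i 0 of 31 were apart. Those are 35.5%, 26.5% and 0% of the genes compared, beside 9.5%, 8.97% and 2.2% of all genes in the same comparisons, and no share was tested. The list medians were -0.093, -0.17 and -0.013. Among the lower genes were Gab1, Jade1, Sfmbt2 and Smoc1, which are known for imprinting that rests on histone methylation in the oocyte and lasts in extraembryonic tissue. Gab1, a docking protein gene, was at log2 7.53 in mEpiSCs, 9.96 in Activin+PD and 10.24 in 2i. Jade1, of a histone acetyltransferase complex, was at 8.06 in mEpiSCs, 10.74 in Activin+PD and 10.60 in 2i. Sfmbt2, a Polycomb gene, was at 7.25 in mEpiSCs, 8.72 in Activin+PD and 9.24 in 2i, and Smoc1, a secreted calcium-binding protein gene, at 6.88, 8.79 and 8.85 in the same order. Slc38a4, an amino acid transporter gene of the same kind, was not lower, at 10.93 in mEpiSCs, 11.33 in Activin+PD and 10.84 in 2i. These 5 genes were put together after their values had been seen.

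Ampd3, an AMP deaminase gene, was at log2 5.71 in mEpiSCs, 7.98 in Activin+PD and 7.03 in 2i, so that Activin+PD stood 0.95 above 2i. H13, a signal peptide peptidase gene, was at 8.71 in mEpiSCs, 7.78 in Activin+PD and 8.47 in 2i, with Activin+PD 0.69 below 2i, while Mcts2, which lies within H13 and is expressed from the paternal allele, was at 7.20, 7.20 and 6.94 in the same order. Airn, the noncoding RNA that silences the paternal Igf2r allele, was not above background on any array.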
